A study of Homo sapiens with 8 samples.

Results

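The genes described here encode the enzymes that build cholesterol and fatty acids, together with the proteins that control them. A fixed list of 33 gene symbols defined the set, and all 33 were among the 13036 genes of the deposited table. They comprise 17 enzymes of the sterol arm, 10 enzymes of the fatty acid arm, and 6 regulators and carriers. Their RNA was measured by sequencing in LN229-TAZ(4SA), a line derived from the human glioblastoma cell line LN229 and carrying a form of the transcriptional coactivator TAZ, in 8 libraries, 2 for each of 4 groups. Control cells were kept in regular culture for 1 h or 7 h, in DMEM with fetal bovine serum and an antibiotic-antimycotic solution and without AF. Treated cells received AF at 1 µM in the absence of glucose for 1 h or 7 h. The labels give the agent only as AF, and the title of the series names thioredoxin reductase 1 as the protein inhibited. AF and the loss of glucose were always applied together, so their contributions cannot be told apart, and every group carries TAZ(4SA). The labels do not say how TAZ(4SA) was introduced or whether the line is 1 clone, nor whether the libraries of a group came from separate cultures. The p-values therefore reflect only how far the libraries of a group differed, and that spread may be technical.

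Cells make cholesterol from acetyl-CoA through mevalonate, isoprenoid units, squalene and lanosterol, and they make fatty acids from the same acetyl-CoA pool. Transcription of most of these enzymes is driven by the membrane-bound factors SREBP1 and SREBP2, which the escort protein SCAP carries from the endoplasmic reticulum to the Golgi for cleavage when sterols are scarce. INSIG1 and INSIG2 hold SCAP back when sterols are plentiful, and INSIG1 is itself a target of the SREBPs. Glioblastoma cells are known for a high demand for cholesterol and fatty acids.

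Promoter sequence was available for 30 of the 33 genes, in 43 windows that reach from 250 bases before to 50 bases after a start site (RefSeq, GRCh38.p14). The stretches below are shown because they belong to the regulator that changed most (INSIG1), the enzyme at the head of the sterol arm (HMGCS1), the gene for SREBP2 itself (SREBF2), an enzyme whose 7 h treatment difference did not pass the test (MSMO1), and a regulator with the opposite direction to INSIG1 (INSIG2). Each is printed 5′ to 3′ on the strand of the gene, from 250 bases before the start site up to the last base before any exon that GENCODE v29 annotates for the gene. Capitals mark matches, on either strand, to 4 motifs. They are TCACNCCAC, the sterol regulatory element core, and CCAAT, the box bound by NF-Y, which reads ATTGG when it lies on the opposite strand. The other 2 are CACGTG, an E-box, and GAANNTTC, a pair of heat shock element units. INSIG1 lies at chr7:155297628-155297775 on the plus strand, HMGCS1 at chr5:43313513-43313662 on the minus strand, SREBF2 at chr22:41832855-41833078 on the plus strand, MSMO1 at chr4:165327419-165327622 on the plus strand and INSIG2 at chr2:118088221-118088451 on the plus strand. For HMGCS1 and INSIG2 the stretch comes from the first of 2 windows.
INSIG1: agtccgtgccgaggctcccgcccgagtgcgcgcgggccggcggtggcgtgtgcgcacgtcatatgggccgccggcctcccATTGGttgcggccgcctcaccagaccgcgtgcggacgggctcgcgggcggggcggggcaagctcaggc
HMGCS1: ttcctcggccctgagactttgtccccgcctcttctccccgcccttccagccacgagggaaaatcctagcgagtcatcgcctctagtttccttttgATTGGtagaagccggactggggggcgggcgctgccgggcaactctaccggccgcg
SREBF2: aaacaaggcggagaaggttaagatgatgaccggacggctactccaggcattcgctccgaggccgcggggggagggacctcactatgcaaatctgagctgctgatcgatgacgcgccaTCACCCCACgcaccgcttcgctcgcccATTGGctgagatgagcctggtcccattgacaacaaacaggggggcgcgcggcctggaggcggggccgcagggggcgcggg
MSMO1: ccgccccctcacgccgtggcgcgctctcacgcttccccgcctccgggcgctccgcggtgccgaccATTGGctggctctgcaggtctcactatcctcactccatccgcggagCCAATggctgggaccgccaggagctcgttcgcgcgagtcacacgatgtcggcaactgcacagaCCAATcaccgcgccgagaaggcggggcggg
INSIG2: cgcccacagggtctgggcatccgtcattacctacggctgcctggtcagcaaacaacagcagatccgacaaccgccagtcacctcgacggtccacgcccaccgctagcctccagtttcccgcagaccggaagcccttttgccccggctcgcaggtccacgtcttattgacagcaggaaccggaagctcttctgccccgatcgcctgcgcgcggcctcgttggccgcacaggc

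The letters TCACNCCAC were found in 1 of the 43 windows (2.33%, against 1.13% of all 35116 windows), and that match, TCACCCCAC, begins 133 bases before the start site of SREBF2. The NF-Y box was found in 25 of the 43 windows (58.1%, against 34.6% of all windows) and in at least 1 window of 21 of the 30 genes. CACGTG was found in 5 windows (11.6%, against 7.26%) and GAANNTTC in 0 (against 6.77% of all windows). In the 15280 windows of tested genes the shares were 1.03% for TCACNCCAC, 34.8% for CCAAT, 9.23% for CACGTG and 4.96% for GAANNTTC. No match overlaps another in the stretches printed. A match is a description of the letters in these windows, and 0 matches say only that these letters are not there.

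Reads in the listed genes numbered between 27731776 and 45811965 per library. Levels are given in CPM, the reads of a gene relative to the size of its library, on the scale of the deposited table. Against the sum of the listed genes, the library sizes behind that scale were larger by a factor of 1.04 to 1.05 for the 4 regular libraries and 1.09 for treated libraries of 1 h, and smaller for treated libraries of 7 h, by a factor of 0.838 for one and 0.846 for the other; the deposited values thus already hold a scaling between libraries. All 33 genes passed the filter on low values, with 18 to 45904 reads per gene and library. Of 10 glioma and mesenchymal markers, 9 were in the table, with a summed level of 12800 to 18200 CPM per library led by VIM and FN1. GFAP, the astrocyte filament gene, lay between 0.438 and 1.34 CPM, and markers of hepatocytes, adipocytes, immune cells and erythroid cells were not among the genes analysed here. The epithelial keratins KRT8 and KRT18 summed to between 56.0 and 75.3 CPM in 6 libraries and to 131 and 133 CPM in treated cells at 7 h, and their part in the 7 h results was not tested. In bulk RNA, fewer cells of a kind and less RNA per cell cannot be told apart.

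In regular culture alone, without any treatment, the set was lower at 7 h than at 1 h. At a limma adjusted p under 0.05 over 13028 tested genes, 24 of the 33 genes fell, against 30.8% of all tested genes, and 2 rose, against 30.7%. The median of the 33 log2 differences was -0.49, beside 0.0024 over all tested genes, and INSIG1, SREBF1, HMGCS1 and IDI1 fell by more than 2-fold. The summed level of the 33 genes was 4143 and 3976 CPM at 1 h and 2735 and 2752 CPM at 7 h, so that both 7 h libraries lay under both 1 h libraries. Under the other scalings tried, 22 or 23 genes fell. The 2 that rose were ACLY and INSIG2, and 0 or 1 gene rose when any 1 of the 4 regular libraries was left out. By arm, 13 of 17 sterol enzymes, 6 of 10 fatty acid enzymes and 5 of 6 regulators fell.

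After 1 h of treatment, 8 of the 33 genes rose (17.7% of all tested genes did) and 5 fell (20.7% did), with a median of 0.0059 beside 0.0072 over all genes. The 8 that rose, MVK, HSD17B7, HMGCS1, SCD, FDFT1, FADS2, FADS1 and FASN, did so by 0.090 to 0.38 on the log2 scale. Of the 6 regulators, 0 passed limma's test at 1 h; SREBF2 (-0.083) was under an unadjusted p of 0.05 and was called lower, as 1 of the 6, with voom weights. The counts rested on single libraries: without regular library B 4 genes rose, without treated library B 5 rose, and 3 fell when treated library B, or library A of regular culture, was left out. Scaling each library to the total of its listed genes gave 12 higher and 3 lower, with 68.4% of all called genes higher in place of 46.1%, and quantile normalization gave 10 and 5, with 57.8% higher.

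After 7 h of treatment, 19 of the 33 genes were higher than in regular culture at 7 h and 8 were lower. Over all tested genes 40.5% were higher and 41.1% lower, so that the share of the set that passed in either direction was near the background. The median of the set was 0.18, beside -0.0070 over all genes. HSD17B7, INSIG1 and PMVK were higher by at least 2-fold and INSIG2 was lower by more than 2-fold. The summed level was 3310 and 3256 CPM in treated cells at 7 h, above both regular libraries of that time and under both of 1 h, while with each library scaled to the total of its listed genes it was 2774 and 2755 in treated cells, under the 2860 and 2895 of regular culture. The counts at 7 h moved with the same scaling: the median over all genes moved to -0.32, and 12 of the 33 genes were called higher and 16 lower. Under it 10725 of the 13028 tested genes were called, and 29.3% of these called genes were higher, in place of 49.7% on the deposited scale. The 12 were HMGCS1, PMVK, MVD, IDI1, FDFT1, HSD17B7, AACS, SCD, FADS1, FADS2, INSIG1 and SREBF1. Regular culture at 7 h enters both this comparison and the one over time, so their values are given side by side below and not set against each other.

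**Figure D1:**
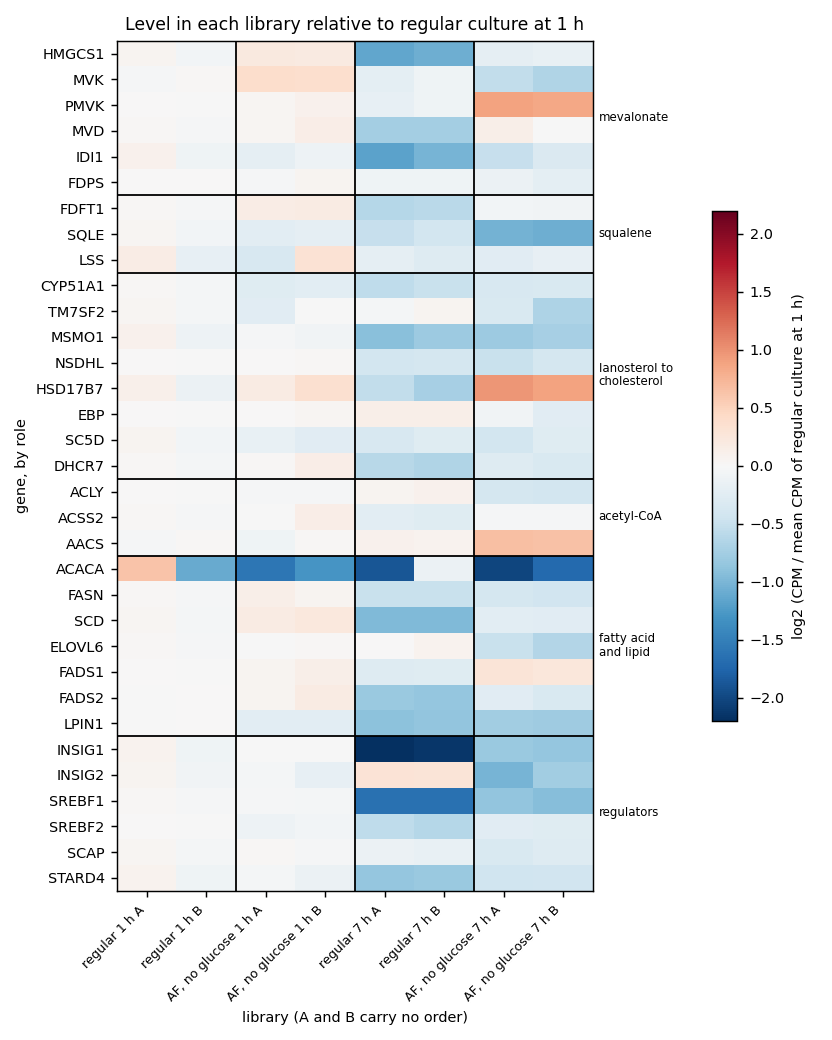
Level of each of the 33 genes (vertical axis, grouped by role) in each of the 8 libraries (horizontal axis), as the log2 ratio of its CPM to the mean of regular culture at 1 h, with blue for lower and red for higher. The regular 7 h columns are mostly blue, darkest for INSIG1 and SREBF1, while in the treated 7 h columns PMVK, HSD17B7 and AACS are red and SQLE and INSIG2 are blue.

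Among the 6 mevalonate enzymes, 4 rose (40.5% of all tested genes did) and 1 fell (41.1% did) in treated cells at 7 h. Over time in regular culture 5 of the 6 fell (30.8% of all tested genes did). HMGCS1, the synthase that joins acetyl-CoA and acetoacetyl-CoA into HMG-CoA, stood at 109.7 and 101 CPM in regular culture at 1 h, 122 and 121 CPM in treated cells at 1 h, 47.8 and 50.1 CPM in regular culture at 7 h, and 92.2 and 93.5 CPM in treated cells at 7 h. The regular 7 h libraries were the lowest of the 8, and the treated 7 h libraries lay between them and the regular 1 h libraries. HMGCS1 rose with treatment by 0.21 (SE 0.043; limma adjusted p = 0.000581) at 1 h and by 0.92 (SE 0.043; limma adjusted p = 1.2e-13) at 7 h, and over time in regular culture it changed by -1.10 (SE 0.043; limma adjusted p = 3.48e-14).

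PMVK, the phosphomevalonate kinase, showed another pattern. It was measured at 35.8 and 35.5 CPM in regular culture at 1 h, 36.6 and 38.2 CPM in treated cells at 1 h, 31.5 and 33.3 CPM in regular culture at 7 h, and 65.9 and 64.2 CPM in treated cells at 7 h. The treated 7 h libraries stood far above the other 6, which lay close together. The 7 h difference was 1.00 (SE 0.049; limma adjusted p = 2.45e-13) and the 1 h difference 0.068 (adjusted p = 0.294 by limma). The decline over time in regular culture was small, -0.14. It did not pass after quantile normalization (-0.11), or without regular library A of 1 h (-0.13) or of 7 h (-0.10).

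MVK, the mevalonate kinase that acts just before PMVK, went the other way at 7 h. Its level was 15.7 and 16.2 CPM in regular culture at 1 h, 20.9 and 20.6 CPM in treated cells at 1 h, 13.8 and 15.0 CPM in regular culture at 7 h, and 11.0 and 10.2 CPM in treated cells at 7 h. Treated libraries were the highest of all at 1 h and the lowest of all at 7 h, with no overlap with regular culture at either time. The differences were 0.38 (SE 0.073; limma adjusted p = 0.0004) at 1 h and -0.45 (SE 0.073; limma adjusted p = 1.48e-05) at 7 h. Over time in regular culture the difference of -0.15 did not pass (limma adjusted p = 0.0833). MVK shares 306 exonic bases with MMAB on the opposite strand (GENCODE v29), and in libraries that do not mark strand those reads cannot be told apart; MMAB differed by 0.17 at 7 h.

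The 2 enzymes that follow, MVD and IDI1, fell in regular culture and were higher in treated cells at 7 h. MVD, the mevalonate diphosphate decarboxylase, stood at 34.6 and 33.3 CPM in regular culture at 1 h, 20.3 and 20.2 CPM in regular culture at 7 h and 37.0 and 33.9 CPM in treated cells at 7 h, a 7 h difference of 0.80 (SE 0.058; limma adjusted p = 1.35e-10). IDI1, the isopentenyl diphosphate isomerase, stood at 51.9 and 45.6 CPM in regular culture at 1 h, 21.5 and 24.0 CPM in regular culture at 7 h and 34.3 and 39.1 CPM in treated cells at 7 h, a 7 h difference of 0.69 (SE 0.071; limma adjusted p = 2.87e-08). In MVD the treated 7 h libraries overlapped those of regular culture at 1 h on the deposited scale, and in IDI1 they lay under them. IDI1 shares 643 exonic bases with IDI2-AS1 on the opposite strand, which rose by 1.94 at 7 h from a mean of 0.804 to 3.24 CPM. FDPS, which makes farnesyl diphosphate, was measured at 178 and 178 CPM in regular culture at 1 h, 167 and 166 CPM in regular culture at 7 h and 162 and 152 CPM in treated cells at 7 h. Its 7 h difference was -0.083 (limma adjusted p = 0.0503), past the threshold in some other settings, among them quantile normalization (-0.22), the scaling to totals (-0.40) and voom weights (-0.086), but not with size factors (-0.064), and its decline over time of -0.095 did not pass without any 1 of the 4 regular libraries (-0.10 to -0.089) or under any of the 3 other scalings (quantile normalization -0.049, totals -0.081, size factors -0.075).

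Of the 3 enzymes that make and cyclize squalene, 1 rose (40.5% of all tested genes did) and 1 fell (41.1% did) at 7 h. FDFT1, the squalene synthase, was measured at 142 and 135 CPM in regular culture at 1 h, 156 and 158 CPM in treated cells at 1 h, 89.4 and 91.8 CPM in regular culture at 7 h, and 133 and 131 CPM in treated cells at 7 h. Treated libraries lay above regular libraries of the same time at both times. The differences were 0.18 (SE 0.036; limma adjusted p = 0.000511) at 1 h and 0.54 (SE 0.036; limma adjusted p = 3.18e-11) at 7 h. SQLE, the squalene epoxidase and a rate-limiting step of the pathway, stood at 89.8 and 83.7 CPM in regular culture at 1 h, 73.8 and 75.2 CPM in treated cells at 1 h, 61.0 and 65.7 CPM in regular culture at 7 h, and 42.3 and 41.1 CPM in treated cells at 7 h. It fell in all 3 comparisons: by 0.22 with treatment at 1 h, by 0.60 at 7 h and by 0.45 over time in regular culture (limma adjusted p = 0.000972, 3.92e-10 and 9.28e-08). The treated 7 h libraries were the lowest of the 8 for SQLE. LSS, the lanosterol synthase, passed in no comparison, and its libraries of 1 group differed by up to 1.6 times (9.36 and 14.9 CPM in treated cells at 1 h).

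The 8 enzymes that turn lanosterol into cholesterol were mixed at 7 h. Of them 3 were higher (40.5% of all tested genes were), 2 lower (41.1% were) and 3 not called. Over time in regular culture 6 of the 8 fell (30.8% of all tested genes did). HSD17B7, the 3-ketosteroid reductase of this branch, had the largest 7 h rise of the set. It was measured at 16.9 and 14.3 CPM in regular culture at 1 h, 17.8 and 20.0 CPM in treated cells at 1 h, 10.8 and 9.38 CPM in regular culture at 7 h, and 30.5 and 28.8 CPM in treated cells at 7 h. The treated 7 h libraries stood above all others and the regular 7 h libraries below all others. The 7 h difference was 1.55 (SE 0.088; limma adjusted p = 2.75e-12), and it was 1.24 when libraries were scaled to the total of the listed genes. At 1 h the difference of 0.28 no longer passed without regular library B (0.15) or treated library B (0.19). Its transcribed pseudogene HSD17B7P2 is in the table too and could share reads: it rose by 1.03 at 1 h and 1.46 at 7 h, the latter from a mean of 1.09 to 3.08 CPM.

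DHCR7, the 7-dehydrocholesterol reductase at the end of the pathway, fell over time from 133 and 127 CPM to 84.9 and 81.7 CPM and stood at 106 and 103 CPM in treated cells at 7 h. CYP51A1, the lanosterol demethylase, went from 229 and 218 CPM to 151 and 158 CPM and stood at 174 and 177 CPM in treated cells at 7 h. In both, the treated 7 h libraries lay between the regular 7 h and the regular 1 h libraries. Their 7 h differences were 0.33 (SE 0.042; limma adjusted p = 6.22e-07) and 0.18 (SE 0.035; limma adjusted p = 0.000103), but under the scaling to totals they were 0.0098 and -0.13, and CYP51A1 also missed the threshold after quantile normalization (0.026). At 1 h CYP51A1 fell by 0.25 (limma adjusted p = 1.15e-05).

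MSMO1, the C4-methylsterol oxidase, and NSDHL, which completes the removal of the same methyl groups, fell over time in regular culture and had no called treatment difference at 7 h. MSMO1 stood at 66.1 and 57.5 CPM in regular culture at 1 h, 32.6 and 35.5 CPM in regular culture at 7 h and 35.5 and 37.0 CPM in treated cells at 7 h, and the 7 h groups met at 35.5 CPM. NSDHL stood at 29.6 and 29.5 CPM in regular culture at 1 h, 22.4 and 22.6 CPM in regular culture at 7 h and 20.96 and 22.5 CPM in treated cells at 7 h. Their differences over time were -0.86 (SE 0.06; limma adjusted p = 3.05e-10) and -0.40 (SE 0.057; limma adjusted p = 6.7e-06). SC5D, the lathosterol oxidase, fell over time by 0.31 (limma adjusted p = 8.61e-05), and its 7 h treatment difference was -0.022 (adjusted p = 0.72 by limma). SC5D was lower with treatment at 1 h (-0.21), and this call needed both regular library A (without it -0.15) and treated library B (without it -0.17).

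EBP, the sterol isomerase, and TM7SF2, a C14 sterol reductase, were lower in treated cells at 7 h, and their differences over time in regular culture did not pass (0.13 and 0.0086; limma adjusted p = 0.0513 and 0.966). The EBP value passed under all 3 other scalings (0.14 to 0.15), with voom weights, with the filter at 5 CPM and in a fit of only the regular libraries. EBP stood at 40.5 and 40.5 CPM in regular culture and 35.1 and 31.1 CPM in treated cells at 7 h, a difference of -0.29 (SE 0.055; limma adjusted p = 7.78e-05). TM7SF2, with 3.44 and 3.73 CPM against 2.84 and 2.23 CPM, differed by -0.50 (SE 0.16; limma adjusted p = 0.00675). The TM7SF2 call rested on 66 to 169 reads per library and was lost without regular library B of 7 h (-0.44) or treated library B of 7 h (-0.33).

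**Figure D2:**
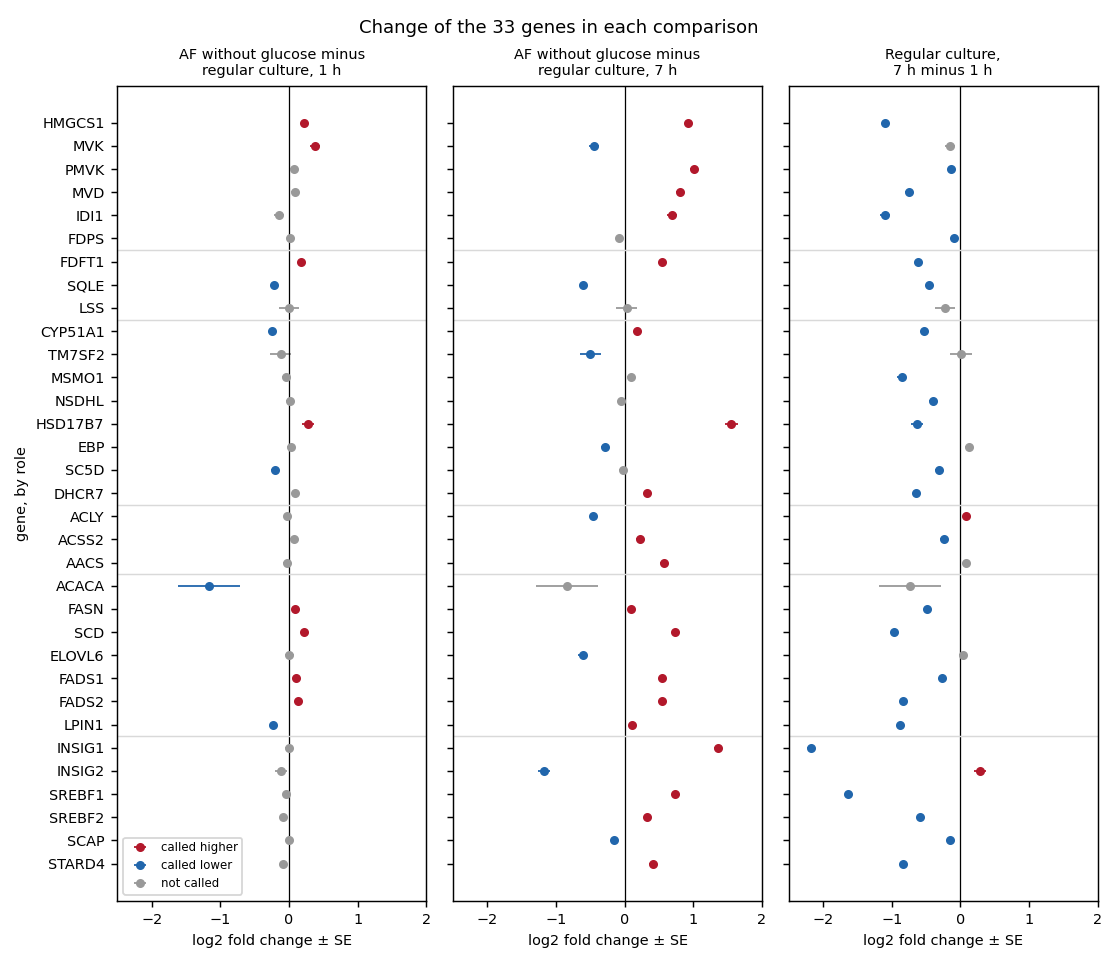
Log2 fold change with its standard error (horizontal axis) of each of the 33 genes (vertical axis, by role) in 3 comparisons, with red for genes called higher, blue for genes called lower and grey for genes not called at a limma adjusted p under 0.05. At 1 h most points lie near 0, at 7 h they spread to both sides with 19 higher and 8 lower, and over time in regular culture 24 lie to the left.

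The 3 enzymes that supply activated acetate and acetoacetate differed in direction at 7 h. ACLY, which cleaves citrate into acetyl-CoA, was measured at 207 and 206 CPM in regular culture at 1 h, 202 and 203 CPM in treated cells at 1 h, 216 and 219.8 CPM in regular culture at 7 h, and 159 and 157 CPM in treated cells at 7 h. The 6 other libraries lay between 202 and 219.8 CPM, and the treated 7 h libraries lay under all of them. The 7 h difference was -0.47 (SE 0.031; limma adjusted p = 3.74e-11). Over time in regular culture ACLY was 0.080 higher, a call lost without any 1 of the 4 regular libraries (0.069 to 0.092).

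AACS, which activates acetoacetate for lipid synthesis, stood at 25.8 and 26.4 CPM in regular culture at 1 h, 24.6 and 26.4 CPM in treated cells at 1 h, 27.9 and 27.6 CPM in regular culture at 7 h, and 41.5 and 40.7 CPM in treated cells at 7 h. Regular culture and the 1 h treated libraries overlapped, and the treated 7 h libraries were above it by 0.57 (SE 0.054; limma adjusted p = 9.97e-09). ACSS2, which makes acetyl-CoA from acetate, had 7 h levels of 48.1 and 47.2 CPM in regular culture and 55.6 and 55.3 CPM in treated cells. That difference, 0.22 (SE 0.049; limma adjusted p = 0.00045), was -0.10 under the scaling to totals.

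Among the 7 enzymes that build and modify fatty acids and lipids, 5 fell over time in regular culture (30.8% of all tested genes did). With treatment 5 of the 7 rose (40.5% of all tested genes did) and 1 fell (41.1% did) at 7 h. SCD, the stearoyl-CoA desaturase that introduces the first double bond, stood at 435 and 412 CPM in regular culture at 1 h, 482 and 498 CPM in treated cells at 1 h, 216 and 216 CPM in regular culture at 7 h, and 361 and 355 CPM in treated cells at 7 h. Treated libraries were above regular libraries of the same time at both times, and the regular 7 h libraries were the lowest. The differences were 0.21 (SE 0.033; limma adjusted p = 3.51e-05) at 1 h, 0.73 (SE 0.033; limma adjusted p = 6.9e-14) at 7 h and -0.97 (SE 0.033; limma adjusted p = 3.47e-15) over time in regular culture.

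FADS1 and FADS2, the delta-5 and delta-6 desaturases of polyunsaturated fatty acids, both rose at 7 h. FADS1 was measured at 175 and 174 CPM in regular culture at 1 h, 183 and 190.1 CPM in treated cells at 1 h, 144 and 145 CPM in regular culture at 7 h, and 213 and 207 CPM in treated cells at 7 h. On the deposited scale the treated 7 h libraries were the highest of the 8. For FADS2 the values were 143 and 145 CPM in regular culture at 1 h, 149.9 and 164 CPM in treated cells at 1 h, 81.8 and 79.7 CPM in regular culture at 7 h, and 121 and 114 CPM in treated cells at 7 h. Here the treated 7 h libraries lay between regular culture at 7 h and at 1 h. The 7 h differences were 0.54 (SE 0.034; limma adjusted p = 1.08e-11) and 0.54 (SE 0.043; limma adjusted p = 5.1e-10). These genes share 490 exonic bases on opposite strands, and FADS2 shares 49 with FEN1, which fell by 1.55 at 7 h, so some reads could belong to a neighbour. Both were also called higher at 1 h, by 0.094 and 0.12, and leaving out either regular library or treated library B ended each of these calls (0.065 to 0.10 for FADS1 and 0.060 to 0.13 for FADS2).

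FASN, the fatty acid synthase, stood at 975 and 951 CPM in regular culture at 1 h, 1048 and 1003 CPM in treated cells at 1 h, 688 and 682 CPM in regular culture at 7 h, and 738 and 722 CPM in treated cells at 7 h. Its decline over time in regular culture, -0.49 (SE 0.03; limma adjusted p = 4.69e-11), was the widest of its differences. The treatment difference at 7 h depended on the scaling, being 0.091 at 7 h on the deposited scale, -0.23 under the scaling to totals and -0.25 after quantile normalization. The FASN calls also ended when treated library A, or library B of regular culture, was left out, both at 1 h (0.058 and 0.072, from 0.090) and at 7 h (0.076 and 0.085).

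ELOVL6, the elongase that takes palmitate to stearate, held 28.8 and 27.8 CPM in regular culture at 1 h and 28.4 and 29.8 CPM at 7 h, and stood at 20.0 and 18 CPM in treated cells at 7 h. It fell with treatment by 0.61 at 7 h (limma adjusted p = 1.78e-08). LPIN1, a phosphatidate phosphatase of lipid assembly, fell over time from 92.2 and 92.4 CPM to 49.7 and 50.5 CPM in regular culture. LPIN1 was lower in treated cells at 1 h, at 78.6 and 78.5 CPM (-0.23, limma adjusted p = 8.32e-05). At 7 h LPIN1 was 0.11 higher in treated cells, a call lost without regular library A (0.10) and of opposite sign under the scaling to totals (-0.20).

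ACACA, the acetyl-CoA carboxylase that commits acetyl-CoA to fatty acids, had few reads, 18 to 159 per library. Its libraries disagreed within groups: 4.83 and 1.46 CPM in regular culture at 1 h and 0.856 and 2.89 CPM at 7 h, up to 3.38 times apart. The 1 h call of -1.17 (SE 0.45; limma adjusted p = 0.0476) became -0.32 without regular library A and was also lost with voom weights (-1.07) and without treated library A (-1.03) or B (-1.30). The 7 h difference of -0.84 was not called (limma adjusted p = 0.0916) but passed without regular library A (-1.69). Likewise the difference over time of -0.73 was not called but passed without regular library B of 1 h or of 7 h (both -1.58), while without regular library A of 1 h or of 7 h it was 0.11. Without regular library B the 7 h treatment difference was 0.0089.

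The regulators held the widest change of the set over time in regular culture, that of INSIG1. With treatment 4 of the 6 were higher at 7 h (40.5% of all tested genes were) and 2 lower (41.1% were). INSIG1, the sterol-sensing anchor of SCAP, was measured at 219.7 and 195 CPM in regular culture at 1 h, 207 and 205 CPM in treated cells at 1 h, 44.0 and 47.3 CPM in regular culture at 7 h, and 118 and 115 CPM in treated cells at 7 h. Regular and treated libraries overlapped at 1 h. At 7 h the groups were far apart, with treated cells at 56.2% of the regular 1 h mean and regular culture far below that. The 7 h treatment difference was 1.35 (SE 0.048; limma adjusted p = 1.6e-15), 1.03 under the scaling to totals, and the difference over time in regular culture was -2.18 (SE 0.048; limma adjusted p = 3.55e-18).

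INSIG2, which also anchors SCAP, moved in the opposite direction. It stood at 16.5 and 15.0 CPM in regular culture at 1 h, 15.2 and 13.9 CPM in treated cells at 1 h, 19.3 and 19.2 CPM in regular culture at 7 h, and 7.75 and 9.29 CPM in treated cells at 7 h. Regular libraries were highest at 7 h, and treated libraries at 7 h were the lowest of the 8. The 7 h difference was -1.18 (SE 0.088; limma adjusted p = 2.27e-10). The rise over time in regular culture, 0.29 (limma adjusted p = 0.00766), was lost without regular library B of 1 h (0.22).

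SREBF1, the gene of SREBP1, which drives mainly fatty acid synthesis, was measured at 90.4 and 87.9 CPM in regular culture at 1 h, 87.2 and 86.2 CPM in treated cells at 1 h, 28.5 and 28.7 CPM in regular culture at 7 h, and 48.8 and 46.4 CPM in treated cells at 7 h. At 1 h the groups lay close to each other. At 7 h both groups were lower, regular culture more so. The 7 h treatment difference was 0.73 (SE 0.043; limma adjusted p = 4.57e-12) and the difference over time in regular culture -1.64 (SE 0.043; limma adjusted p = 5.75e-17). SREBF1 shares 556 exonic bases with RAI1 on the opposite strand, which differed by -0.15 at 7 h and by -0.60 over time.

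SREBF2, the gene of SREBP2, which drives mainly sterol synthesis, stood at 228 and 225 CPM in regular culture at 1 h, 210.0 and 217 CPM in treated cells at 1 h, 154 and 147 CPM in regular culture at 7 h, and 189.8 and 188 CPM in treated cells at 7 h. The treated 7 h libraries lay between the regular 7 h and regular 1 h libraries. It rose with treatment by 0.33 (SE 0.034; limma adjusted p = 3.13e-08) at 7 h on the deposited scale, and the value was 0.013 under the scaling to totals. STARD4, a sterol carrier of the cytosol, stood at 114 and 101 CPM in regular culture at 1 h, 59.5 and 61.2 CPM in regular culture at 7 h and 79.4 and 80.8 CPM in treated cells at 7 h. Its 7 h difference of 0.41 (SE 0.048; limma adjusted p = 2.02e-07) was 0.092 under the scaling to totals. STARD4 shares 124 exonic bases with STARD4-AS1, which differed by -2.43 at 7 h.

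SCAP itself was measured at 85.5 and 81.5 CPM in regular culture at 1 h, 76.0 and 74.3 CPM in regular culture at 7 h and 66.1 and 68.6 CPM in treated cells at 7 h. It was -0.16 in the 7 h treatment comparison (limma adjusted p = 0.0017) and -0.15 over time, the latter lost without regular library A of 1 h (-0.12).

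**Figure D3:**
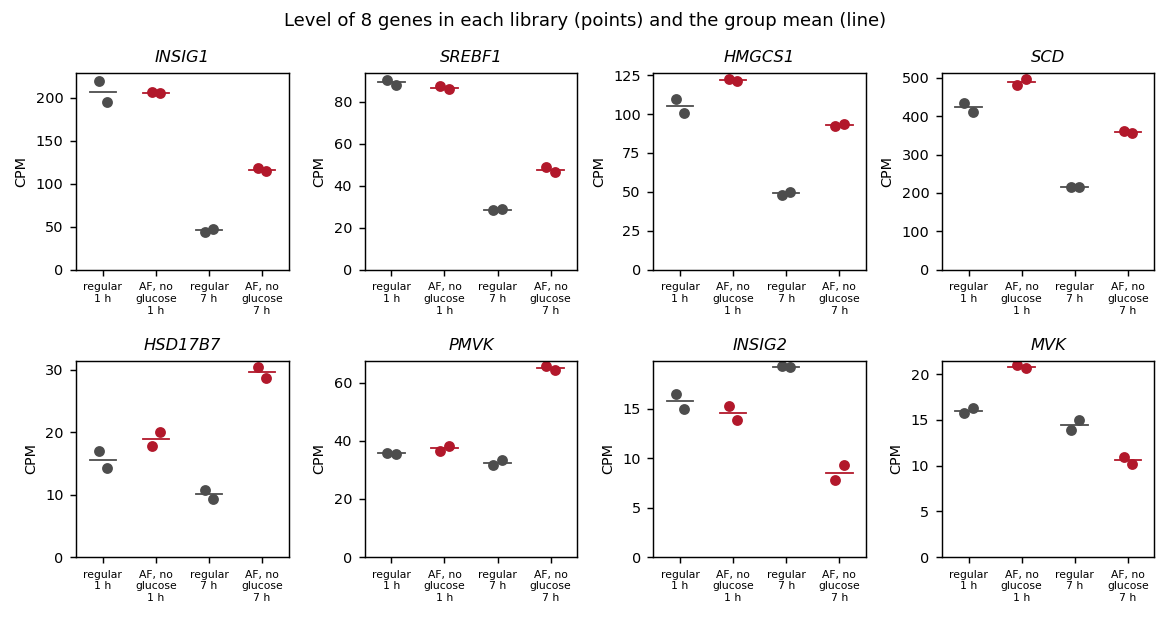
Level in CPM (vertical axis, from 0) of 8 genes in each library (points) and the mean of the 2 libraries of a group (line), with regular culture in grey and AF without glucose in red, at 1 h and 7 h. INSIG1, SREBF1, HMGCS1 and SCD are lowest in regular culture at 7 h, HSD17B7 and PMVK are highest in treated cells at 7 h, and INSIG2 and MVK are lowest there.

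The summed levels of the role groups show how these genes add up. In the sterol arm the 17 enzymes summed to 1245 and 1180 CPM in regular culture at 1 h, 1188 and 1228 CPM in treated cells at 1 h, 853.1 and 874.5 CPM in regular culture at 7 h, and 1036 and 1024 CPM in treated cells at 7 h. In the fatty acid arm the 10 enzymes summed to 2144 and 2091 CPM, 2252 and 2255 CPM, 1501 and 1500 CPM, and 1764 and 1724 CPM in the same order. On this deposited scale the treated 7 h libraries of both arms lay above regular culture at 7 h and under regular culture at 1 h. Under the scaling to totals that order turned at 7 h, with the sterol arm at 892.1 and 919.9 in regular culture against 868.0 and 866.4 in treated cells and the fatty acid arm at 1569 and 1578 against 1478 and 1459. Without FASN, which holds the largest part of the fatty acid sum, the other 9 enzymes gave 1169 and 1139 CPM in regular culture at 1 h, 812.4 and 818.5 CPM at 7 h, and 1026 and 1002 CPM in treated cells at 7 h, groups that overlapped at 7 h under the scaling to totals (849.6 and 861.1 against 860.0 and 847.7). The summed level of the acetyl-CoA suppliers was lower in treated cells at 7 h on both scales. On the deposited scale it was 292.3 and 294.5 CPM in regular culture and 255.7 and 252.8 CPM in treated cells at 7 h. ACLY, which holds the largest part of this sum, fell (-0.47), while ACSS2 (0.22) and AACS (0.57) were called higher on that scale. These sums have no test.

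The treatment differences at 7 h and 1 h were compared within the same fit. At a limma adjusted p under 0.05 the difference was called above 0 for 18 genes and below 0 for 7. Of all tested genes, 36.7% were called above 0 and 37% below. The median of the set was 0.33, beside 0.0089 over all genes. INSIG1 (1.36), HSD17B7 (1.28), PMVK (0.93) and IDI1 (0.84) had the highest values. INSIG2 (-1.06), MVK (-0.82) and ELOVL6 (-0.62) had the lowest. For MVK the 2 times were opposite in sign, each past the threshold in its own comparison. FASN, whose treatment difference was 0.090 at 1 h and 0.091 at 7 h, had a difference between times of 0.0017 (limma adjusted p = 0.973). The SC5D call (0.19) did not pass when treated library B of either time, or library A of regular culture of either time, was left out (0.12 to 0.14), and the SCAP call (-0.16) needed, of the 1 h libraries, regular B and treated A and, of the 7 h libraries, both A libraries (without each, -0.15 to -0.13). Under the scaling to totals the median over all genes was -0.38, and 9 of the 33 genes were called above 0 and 15 below. With that scaling 10098 of the 13028 tested genes were called, and 24.9% of these called genes were above 0, in place of 49.8% on the deposited scale.

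**Figure D4:**
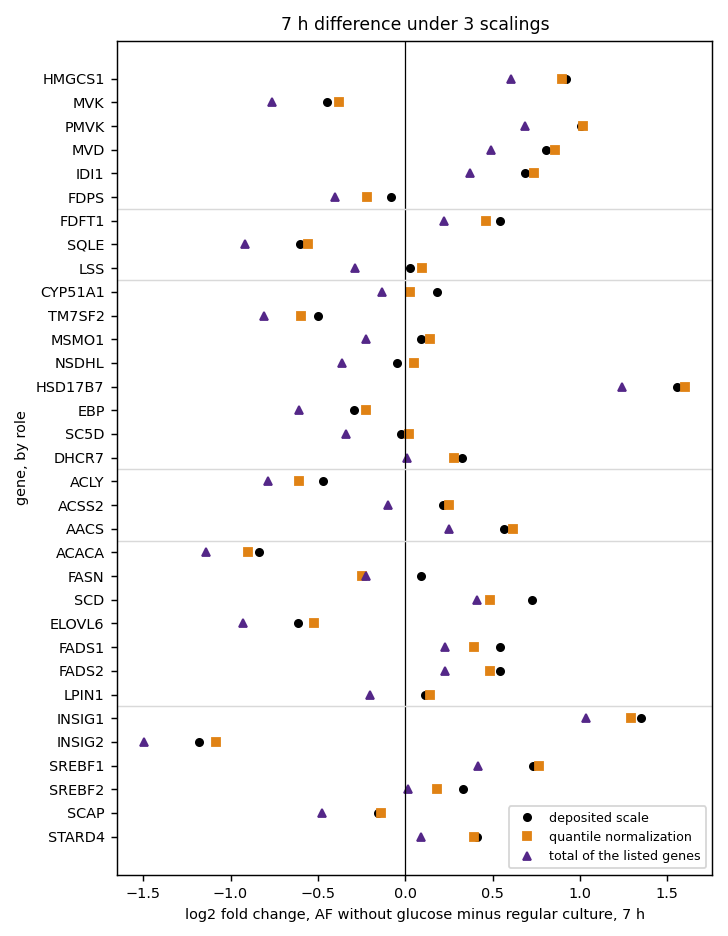
Log2 difference between treated cells and regular culture at 7 h (horizontal axis) of each of the 33 genes (vertical axis, by role) on the deposited scale (black circles), after quantile normalization (orange squares) and with each library scaled to the total of its listed genes (purple triangles). Scaling to totals moves every gene to the left, and LSS, CYP51A1, MSMO1, ACSS2, FASN and LPIN1 change sign, while HSD17B7, INSIG1 and PMVK lie to the right and INSIG2 to the left.

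The NF-Y box matches were set beside the calls. At least 1 window with CCAAT was found for 11 of the 17 genes with a window that were higher at 7 h, for 4 of 7 that were lower and for 6 of 6 that were not called. Of the 21 genes with a window that fell over time in regular culture, 15 had one. The INSIG2 stretch printed above held none of the 4 motifs, and the MSMO1 stretch held 3 CCAAT matches.

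Other genes of lipid metabolism were read from lists that fit the pathway, naming up to 2 genes in each, those with the highest mean level. Among 9 genes that supply NADPH and citrate for lipid synthesis, 8 rose and 1 fell at 7 h, where 40.5% of all tested genes rose and 41.1% fell. CS, the citrate synthase, fell by 0.12. Chosen after their values were seen, ME1, the malic enzyme, went from 16.5 and 16.8 CPM in regular culture to 70.2 and 72.4 CPM in treated cells (2.10), and PGD and IDH1 rose by 1.81 and 1.41. At 1 h 2 of these 9 rose (17.7% of all tested genes did), and over time in regular culture 7 of the 9 fell (30.8% of all tested genes did). Under the scaling to totals 5 of the 9 rose at 1 h, where 5760 of 13028 tested genes were called, 68.4% of them higher. Among 7 tested long-chain acyl-CoA synthetases, 5 rose and 1 fell at 7 h, with ACSL3 at 0.98 and ACSL1 at 1.12. Under the scaling to totals 6 of the 9 and 3 of the 7 were higher at 7 h and 1 of each was lower, with ME1 at 1.78 and ACSL1 at 0.80. With that scaling 10725 of 13028 tested genes were called at 7 h, 29.3% of them higher.

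The machinery that cleaves SREBPs and turns over INSIG proteins had 9 of 15 genes higher and 5 lower at 7 h, or 7 and 8 under the scaling to totals. The shares over all tested genes, 40.5% higher and 41.1% lower, are the background for this list and for those of sterol transport and efflux. Under the scaling to totals 10725 of the 13028 tested genes were called at 7 h, 29.3% of them higher. VCP, the ATPase that extracts proteins from the endoplasmic reticulum, stood at 588 and 574 CPM in regular culture and 998 and 1017 CPM in treated cells, and its cofactor NPLOC4 at 386 and 378 and 697 and 699 CPM (0.79 and 0.87). The SREBP proteases MBTPS1 and MBTPS2, named after their values were seen, were among the 5 lower. MBTPS1 went from 132 and 136 CPM in regular culture at 7 h to 106 and 109 CPM in treated cells. MBTPS2 went from 40.5 and 39.5 CPM to 25.8 and 27.8 CPM. At 1 h, where 20.7% of all tested genes fell and 17.7% rose, 6 of the 15 fell and 0 rose by limma, with 0 higher at an unadjusted p under 0.05 and 0 with voom weights, but under the scaling to totals 3 were higher and 4 lower. Over all 13028 tested genes that scaling gave 5760 calls at 1 h, 68.4% of them higher. Among 14 genes of sterol transport and esterification, 8 rose and 4 fell at 7 h, or 4 and 7 under the scaling to totals. NPC1, the lysosomal cholesterol exporter, was at 1.28 and its partner NPC2 at 0.34 (0.96 and 0.027 under that scaling). Among 9 genes of the LXR receptors and sterol efflux, 3 rose and 4 fell at 7 h under both scalings. The cholesterol exporter ABCA1 went from 54.1 and 58.0 CPM to 143 and 150.2 CPM (1.39). ABCG1, another sterol exporter, named after its values were seen, went from 1.71 and 1.85 CPM to 29.7 and 25.2 CPM (3.90), where regular culture at 1 h had 9.33 and 9.89 CPM.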

How the data were processed

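RNA was made into SMART-Seq mRNA HT and Nextera XT libraries, which do not mark strand, per the labels' protocols. HISAT2, edgeR and GRCh38 appear in the submitters' processing notes, without versions; the counting step is not given in the sources used here. Values in the deposited table are log2 CPM with a prior of 0.0522 CPM, read from the lowest values. With the prior removed, 100% of values came out whole, to 0.1 read. The file's second header line gives each column's group and no replicate number, so A and B carry no order.

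Of the deposited log2 values, 13028 genes had 1 CPM or more in 2 or more libraries (8 did not) and were fitted in limma 3.58.1 (R 4.3.3). The model held the 4 group means over the 8 libraries, with the variance trended on level (residual degrees of freedom 4, prior 14.5, median residual SD 0.0587). Calls are Benjamini-Hochberg adjusted p under 0.05 across the tested genes, for each of 4 contrasts. The fit was tested on simulated reads. Levels in CPM have the prior removed. Differences are on the scale of the deposited log2 values, where changes of genes with few reads are understated.

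The 33 genes are all named, with the 2 genes of highest mean CPM from each other list, except where a result is not reported here. Genes and lists were chosen with earlier results of these data known. Motifs were searched in RefSeq promoter windows (GRCh38.p14), and exon overlaps come from GENCODE v29. The 16 alternative settings were quantile normalization, scaling to the sum of the listed genes, median-of-ratios size factors, voom weights on recovered reads, no filter, a filter at 5 CPM, a pseudocount of 0.5 CPM, fits of only the libraries compared, and leaving out each library.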

Additional observations from a re-analysis of the deposited data

Results flagged for a closer look

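The treatment difference at 7 h differed from that at 1 h for 25 of the 33 genes, by the test of this difference within the fit (limma adjusted p under 0.05). Of all tested genes, 73.7% passed, 36.7% upward and 37% downward, so that the share of the set that passed in either direction was near the background. Values are the 7 h difference minus the 1 h difference on the log2 scale. Those above 0 were INSIG1 (1.36), HSD17B7 (1.28), PMVK (0.93), IDI1 (0.84), SREBF1 (0.77), MVD (0.71), HMGCS1 (0.71), AACS (0.60) and SCD (0.52), followed by STARD4 (0.50), FADS1 (0.45), CYP51A1 (0.43), FADS2 (0.42), SREBF2 (0.41), FDFT1 (0.36), LPIN1 (0.35), DHCR7 (0.24) and SC5D (0.19). Those below 0 were INSIG2 (-1.06), MVK (-0.82), ELOVL6 (-0.62), ACLY (-0.44), SQLE (-0.38), EBP (-0.32) and SCAP (-0.16). In MVK the 2 differences had opposite signs (0.38 at 1 h and -0.45 at 7 h), and in CYP51A1 and LPIN1 a value below 0 at 1 h (-0.25 and -0.23) stood beside a value above 0 at 7 h (0.18 and 0.11, of opposite sign under the scaling to totals).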

How the results depend on the processing

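Scaling each library to the total of its listed genes moved the 7 h counts and those of the difference between times more than any other setting tried: at 7 h 12 genes were higher and 16 lower, in the difference between times 9 and 15, and at 1 h 3 were lower; by construction it shifts every gene of a library alike, and the median over all genes went to -0.32 at 7 h and -0.38 for the difference between times. Among values called on at least 1 of the scales, the 7 h difference turned under it to -0.13 for CYP51A1, -0.22 for MSMO1, -0.10 for ACSS2, -0.23 for FASN and -0.20 for LPIN1. The difference between times turned to -0.023 for FDFT1, -0.25 for MSMO1, -0.20 for SC5D, -0.15 for DHCR7, -0.24 for ACSS2, -0.38 for FASN and -0.040 for LPIN1. Quantile normalization turned FASN to -0.25 at 7 h and to -0.45 between times, and the cause was not tested. Leaving out 1 library at a time gave 4 to 9 genes higher and 3 to 7 lower at 1 h, 18 to 19 higher and 7 to 9 lower at 7 h, and over time in regular culture 0 to 1 higher and 21 to 24 lower without a regular library and 2 to 3 higher without a treated library; a group left with 1 library is assumed to vary like the others. Over the single genes and all settings, 1675 values in all, 57 lost and 42 gained a call with the sign kept. The sign turned in 62, of which 14 had a call on at least 1 side and 48 had none on either. ACACA rested on 18 to 159 reads and TM7SF2 on 66 to 169 reads per library. No paired analysis was possible because the columns carry no replicate numbers.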

Other observations

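Further lists of lipid genes were mixed in direction at 7 h, where 40.5% of all tested genes were higher and 41.1% lower, on the deposited scale. Under the scaling to totals 10725 of the 13028 tested genes were called at 7 h, 29.3% of them higher. Among 13 other genes of fatty acid elongation and desaturation, 5 rose and 4 fell (4 and 6 under the scaling to totals). ELOVL5, an elongase of polyunsaturated fatty acids, went from 191 and 199.5 CPM in regular culture to 596 and 588 CPM in treated cells (1.60), where regular culture at 1 h had 294 and 279.9 CPM, and HACD3 differed by -0.013 (limma adjusted p = 0.742). Among 8 tested genes of lipid droplets and lipolysis, 3 rose and 5 fell (1 and 5 under the scaling to totals). MGLL, a monoglyceride lipase, fell by 0.67 and PLIN3, a droplet coat protein, by 0.84. HILPDA, an inhibitor of droplet lipolysis, named after its values were seen, went from 10.8 and 10.5 CPM to 1.16 and 0.925 CPM (-3.30).

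For the lists that follow, the 7 h shares over all tested genes were 40.5% higher and 41.1% lower on the deposited scale. Under the scaling to totals 10725 of 13028 genes were called at 7 h, 29.3% of them higher. Among 18 tested genes of fatty acid oxidation, 8 rose and 5 fell at 7 h, or 1 and 10 under the scaling to totals, with ACADVL at 0.24 (-0.079 under that scaling) and HADHA at -0.035 (limma adjusted p = 0.413). At 1 h 0 of the 18 passed limma's test, 1 was higher and 0 lower at an unadjusted p under 0.05, 1 was called higher with voom weights, and 3 were called higher under the scaling to totals. Over all tested genes 17.7% rose and 20.7% fell at 1 h. Under the scaling to totals 5760 of 13028 were called at 1 h, 68.4% of them higher. Among 15 genes of the non-sterol isoprenoid branch, 4 rose and 6 fell at 7 h, or 1 and 11 under the scaling to totals, with ICMT at -0.73 and RABGGTB at 0.25 (-0.069 under that scaling). DOLK, the dolichol kinase, named after its values were seen, went from 32.1 and 30.8 CPM to 4.60 and 3.86 CPM (-2.88). Among 11 tested genes of triglyceride synthesis, 2 rose and 3 fell, or 0 and 8 under the scaling to totals, with AGPAT3 at -0.58 and GPAT3 at 0.046 (-0.27 under that scaling; limma adjusted p = 0.202). Among 10 subunits and upstream kinases of AMPK, 2 rose and 5 fell, or 0 and 10 under the scaling to totals, with CAB39 at 0.13 (-0.19 under that scaling) and PRKAG1 at 0.057 (-0.26 under that scaling; limma adjusted p = 0.198).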
